A study of Mus musculus with 12 samples.

Results

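The Kcnq1ot1 domain is a cluster of imprinted genes at the distal end of mouse chromosome 7. It was taken here as the CpG sites lying inside, or within 5000 bp of, Kcnq1, Kcnq1ot1, Cdkn1c, Phlda2 and Slc22a18, which gave 152 of the 421177 sites in the deposited table. The domain was chosen by the diet comparison of these data, in which methylation levels near the start of Kcnq1ot1 were lower after maternal high-fat diet. Differences between the diets in the domain are therefore described, and counts of sites called for diet are given without being read as a test. Differences between the sexes did not enter the choice and were tested. Levels between regions of the domain were tested too, but a clear drop needs a level to drop from. The choice thus favoured a raised level in the control region.

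DNA was taken from the left ventricle of 12 wild-type FVB/N mice aged 3 weeks and read by reduced representation bisulfite sequencing, in which the enzyme MspI cuts at CCGG and bisulfite separates methylated from unmethylated cytosines. Their mothers were FVB/NJ females kept on high-fat chow (HFD) or regular chow (RD) beginning at 6 weeks of age. They were mated after 8 weeks on that diet with males on regular chow. Offspring ate regular chow alone once weaned. HFD mothers gave 3 daughters and 3 sons to the study, while RD mothers gave 4 daughters and 2 sons. Every mouse was a wild type and none carried a transgene, and the number of mothers and the litter of each mouse are not given in the labels, so p-values measure the spread between these mice, some of which may be littermates. Each mouse had values at 385299 to 417081 sites, in percent without read counts, so the depth behind a value is unknown. Library numbers ran from 2 to 8 in HFD and from 9 to 14 in RD, and within each diet the females had the lower numbers (2 to 4 against 6 to 8 in HFD, and 9 to 12 against 13 to 14 in RD). Library order therefore cannot be told apart from diet, or from sex within either diet. Left ventricle holds several cell types, and a shift in their proportions cannot be told apart from a change within a type.

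In an imprinted cluster the maternal and paternal chromosomes carry different marks. Here the maternal copy of the control region at the start of Kcnq1ot1 acquires methylation in the oocyte, while the unmethylated paternal copy transcribes Kcnq1ot1, a long noncoding RNA antisense to Kcnq1. That RNA silences the protein-coding genes around it on the same chromosome. The genes it restrains include Cdkn1c, an inhibitor of cyclin-dependent kinases that limits cell division, Phlda2, a pleckstrin homology domain protein that limits placental growth, and Slc22a18, a membrane transporter. Kcnq1 encodes the pore subunit of a potassium channel that repolarises heart muscle, and its imprinted expression is known to be lost as the heart develops.

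The sequences just before the starts of 3 members are shown to place their CG pairs and the measured sites. Each is the 250 bases before the start, from RefSeq on GRCm38.p6, written 5′ to 3′ on the gene's own strand. Capitals mark the CG pairs with a measured site in Phlda2, and every CG pair in the other sequences, where no site was measured. Kcnq1ot1 lies on the minus strand (chr7:143296548-143296797), Phlda2 on the minus strand (chr7:143502525-143502774) and Slc22a18 on the plus strand (chr7:143473539-143473788).
Kcnq1ot1: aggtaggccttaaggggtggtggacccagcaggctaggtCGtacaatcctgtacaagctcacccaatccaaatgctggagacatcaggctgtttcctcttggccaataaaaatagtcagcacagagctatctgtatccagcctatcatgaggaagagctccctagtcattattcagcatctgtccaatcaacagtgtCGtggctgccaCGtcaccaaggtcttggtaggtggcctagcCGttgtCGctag
Phlda2: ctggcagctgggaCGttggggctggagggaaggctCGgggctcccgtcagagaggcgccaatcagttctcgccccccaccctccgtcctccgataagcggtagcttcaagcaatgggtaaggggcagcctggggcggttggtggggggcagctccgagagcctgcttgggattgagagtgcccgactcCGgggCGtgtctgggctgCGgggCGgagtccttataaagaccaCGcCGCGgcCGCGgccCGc
Slc22a18: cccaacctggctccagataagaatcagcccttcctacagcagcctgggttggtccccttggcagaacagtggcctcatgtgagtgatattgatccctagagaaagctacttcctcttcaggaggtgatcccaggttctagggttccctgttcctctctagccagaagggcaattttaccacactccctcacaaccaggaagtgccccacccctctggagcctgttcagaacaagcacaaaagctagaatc
The Phlda2 sequence holds 21 CG pairs, a number reached by 16.3% of 32817 such RefSeq sequences, and 12 of them were measured. The Kcnq1ot1 sequence holds 5 CG pairs and the Slc22a18 sequence holds 0, against a median of 6. CCGG occurs once in the Phlda2 sequence and in neither of the others, and 47.0% of all sequences hold it. The letters CCAAT, counted on both strands, occur 3 times before Kcnq1ot1, and 2.79% of all sequences hold at least 3. These counts describe the letters of the windows only.

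Of the 152 sites, 112 had a value in all 12 mice and 40 had fewer, with 8 as the lowest number. Kcnq1 had 78 sites within 5000 bp (143106877 to 143427050 on chromosome 7), Kcnq1ot1 11 (143213111 to 143296547), Cdkn1c 31 (143458339 to 143461059), Phlda2 41 (143501545 to 143503145) and Slc22a18 43 (143473726 to 143499334). Kcnq1ot1 overlaps Kcnq1, and Slc22a18 has only 2 sites in its own body, so most of its sites are those of its neighbour Phlda2. The gene table used here has no exons or introns. Members and the rest of the genome had similar shares of low and intermediate sites. Of the 112 complete sites, 40.2% had a mean under 5% and 22.3% a mean of 20 to 80%, against 41.9% and 19.8% of 306534 autosomal complete sites. The row nearest to the domain's limit on the inside was at 143465472, before Cdkn1c, with 31.9% in HFD and 44.9% in RD. Past the end of Kcnq1, the first row outside the limit, at 143438117, opened a stretch of 7 sites that averaged 0.972%.

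The control region was compared first with the starts of the other genes. Within 2000 bp of the Kcnq1ot1 start, all 11 measured sites fell between 143295469 and 143295618, inside both Kcnq1ot1 and Kcnq1. They lay 929 to 1078 bases into the Kcnq1ot1 transcript. Their mean level was 36.2% ± 9.36 (SD, n = 12), from 21.4% in HFD female 2 to 53.1% in RD female 3. The sites were close to each other, with means from 32.7% at 143295508 to 40.4% at 143295618. The start of Kcnq1 had little methylation, with 4.50% ± 3.36 over 19 complete sites within 1000 bp, although the 4 sites nearest the start, 143106880 to 143106953, averaged 10.8%. The start of Phlda2 had 4.38% ± 3.30 over 41 sites (SD, n = 12 each). The control region was higher than the Kcnq1 start in 12 of 12 mice, by 31.7 percentage points ± 9.002 (SD, n = 12; exact sign-flip permutation test, two-sided, p = 0.000488). It was higher than the Phlda2 start in 12 of 12 mice too, by 31.8 points ± 10.2 (SD, n = 12; exact permutation p = 0.000488). This is the smallest p-value that 12 mice allow, and it stayed 0.000488 after adjustment over both genes. The choice of the domain favoured a raised control region, so p-values for its excess over other regions are not independent of that choice. The difference between the Kcnq1 and Phlda2 starts was 0.122 points ± 3.78 (SD, n = 12; exact permutation p = 0.909, 0.909 after adjustment over 3 pairs), smaller than the spread between mice.

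Cdkn1c and Slc22a18 could not enter the comparison of starts. Cdkn1c had 2 sites within 1000 bp of its start, at 143461128 and 143461133, each with values in 8 mice. Their levels were 6.47% ± 8.61 and 8.74% ± 12.9 in HFD and 7.44% ± 7.19 and 14.8% ± 3.79 in RD (SD, n = 4 each). Slc22a18 had 0. In place of its start, the 10 complete sites inside Cdkn1c, 143459616 to 143459676, were compared, a choice made after seeing the data. They averaged 10.9% ± 7.06, and the control region was 25.4 points ± 12.8 higher (SD, n = 12; exact permutation p = 0.000488). The control region was higher in 12 of 12 mice, although by only 0.335 points in HFD female 4. The name Cdkn1c body stands for these 10 complete sites. The 5 sites nearest the far end of the gene, incomplete and left out, mostly lay above the control region. The Cdkn1c body was 6.49 points ± 7.27 above the Phlda2 start (10 of 12 mice; exact permutation p = 0.0103, 0.0308 adjusted over 3 pairs). Its difference from the Kcnq1 start, 6.37 points ± 9.12, did not pass after adjustment (8 of 12 mice; exact permutation p = 0.0361, adjusted 0.0542).

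**Figure D1:**
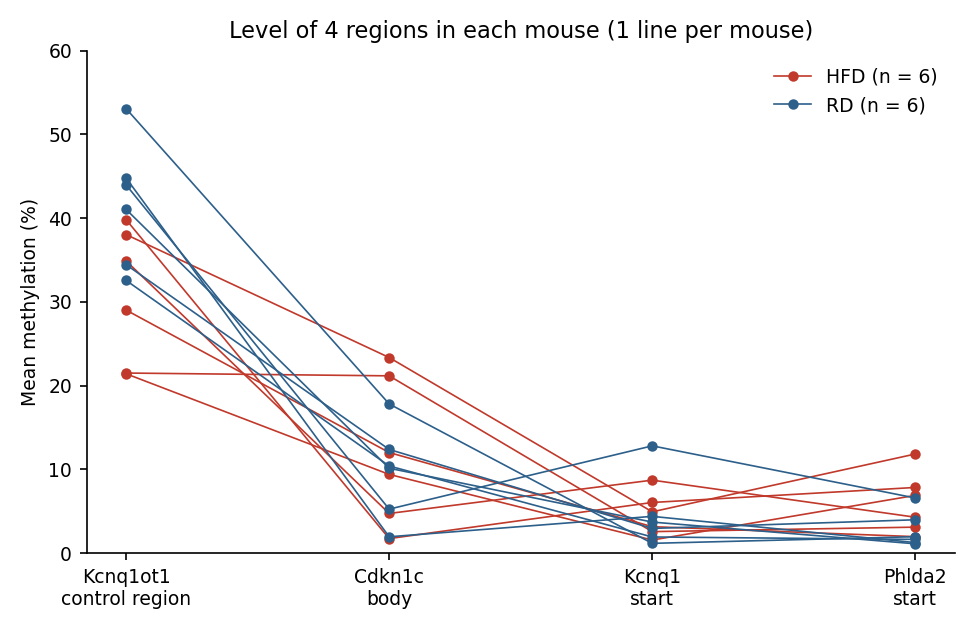
Mean methylation in percent of the Kcnq1ot1 control region (11 sites), the Cdkn1c body (10 sites), the Kcnq1 start (19 sites) and the Phlda2 start (41 sites), with 1 line for each of the 12 mice coloured by maternal diet. Every line falls from the control region to the Cdkn1c body, by 0.335 to 42.8 points.

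Away from the starts, the body of Kcnq1 was mostly methylated. Its 19 complete sites outside the control region and the start averaged 70.6% ± 1.79 (SD, n = 12), with site means from 19.8 to 91.9%. Incomplete body sites at 143154194 to 143154860, with values in 11 mice, had means of only 5.12 to 7.69%. The other incomplete body sites had means of 58.5 to 97.7%. The 4 complete sites just past the end of Kcnq1 averaged 71.5% ± 4.29. Before Cdkn1c the level changed over a short distance. The sites at 143464006 to 143464209 had stretch means of 3.30 to 15.4%, and the 3 sites at 143465452 to 143465472 averaged 56.1%. Inside Cdkn1c, the 5 sites nearest its far end, 143458918 to 143458975, had values in 10 or 11 mice. They lay at 28.5 to 71.3% in HFD and 37.4 to 71.4% in RD, above the 10 complete sites. All but 143458971 also lay above the control region mean in both diets. The complete Slc22a18 site, at 143476102, had 29.4% ± 4.99 in HFD and 29.3% ± 6.59 in RD (SD, n = 6 each). Ordered by level over complete sites, the Kcnq1 body and its far flank came highest, followed by the control region. Next were the upstream flank of Cdkn1c (29.5% ± 3.44), the Slc22a18 site (29.4% ± 5.57) and the 10 sites of the Cdkn1c body. The starts of Kcnq1 and Phlda2 came last. The flank of Cdkn1c and the Slc22a18 site, neighbours in this order, differed by less than their spread. The control region exceeded the flank of Cdkn1c by less than its own spread between mice, and the flank was the higher in HFD females 2, 3 and 4 and RD female 4. Levels also differed by less than their spread between the Kcnq1 body and its far flank, and between the starts of Kcnq1 and Phlda2.

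**Figure D2:**
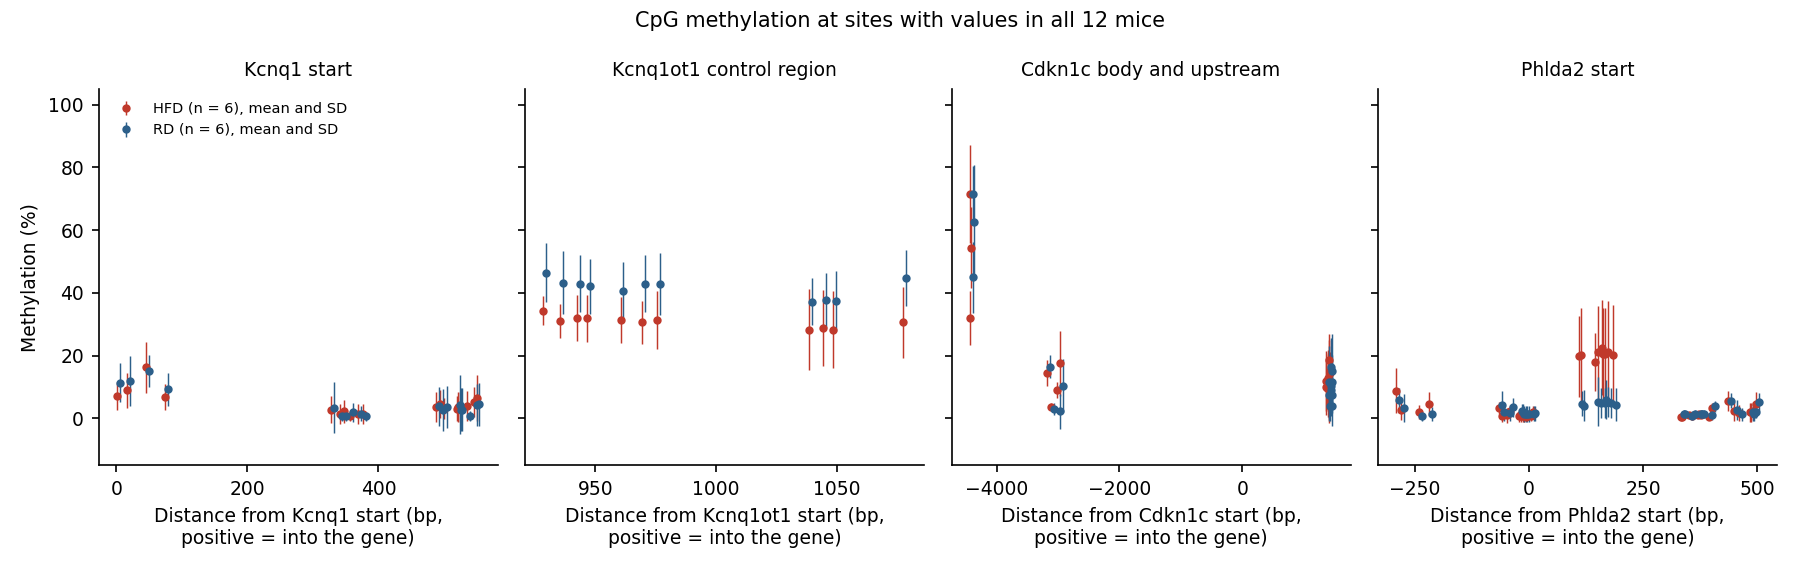
Methylation in percent at every site with 12 values near the Kcnq1 start, in the Kcnq1ot1 control region, around Cdkn1c and near the Phlda2 start, against distance from each gene's start in bp, as mean and SD of the 6 HFD and the 6 RD mice. HFD means lie below RD means at all 11 control region sites, and above them at 9 neighbouring Phlda2 sites.

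Within the control region, HFD offspring lay below RD offspring in these samples. HFD mice had 21.4% at the lowest, a median of 32.0% and 39.8% at the highest. RD mice had 32.6% at the lowest, a median of 42.5% and 53.1% at the highest. The ranges overlapped, since 3 of the HFD mice lay above the lowest RD mouse. The means were 30.8% ± 8.10 and 41.7% ± 7.49 (SD, n = 6 each), a difference of -10.9 points. All 11 sites shared the direction, with differences from -8.71 to -14.1 points. The 7 sites between 143295571 and 143295618 had HFD means of 30.6 to 34.4% and RD means of 40.7 to 46.5%. These values led to the choice of the domain and carry no test. Of 1481 gene-end windows with a mean of 20 to 80%, 56.8% were lower in HFD, with a median of -0.514 points.

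The mice of each diet and sex separated further. HFD females 2, 3 and 4 had 21.4, 29.0 and 21.5% in the control region. HFD males 2, 3 and 4 had 38.0, 34.9 and 39.8%. RD females 1, 2, 3 and 4 had 44.0, 34.5, 53.1 and 32.6%, and RD males 1 and 2 had 44.8 and 41.05%. Thus the 3 HFD females lay below the other 9 mice, while the HFD males lay within the range of the RD mice. The diet difference was -17.0 points in females and -5.33 points in males.

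**Figure D3:**
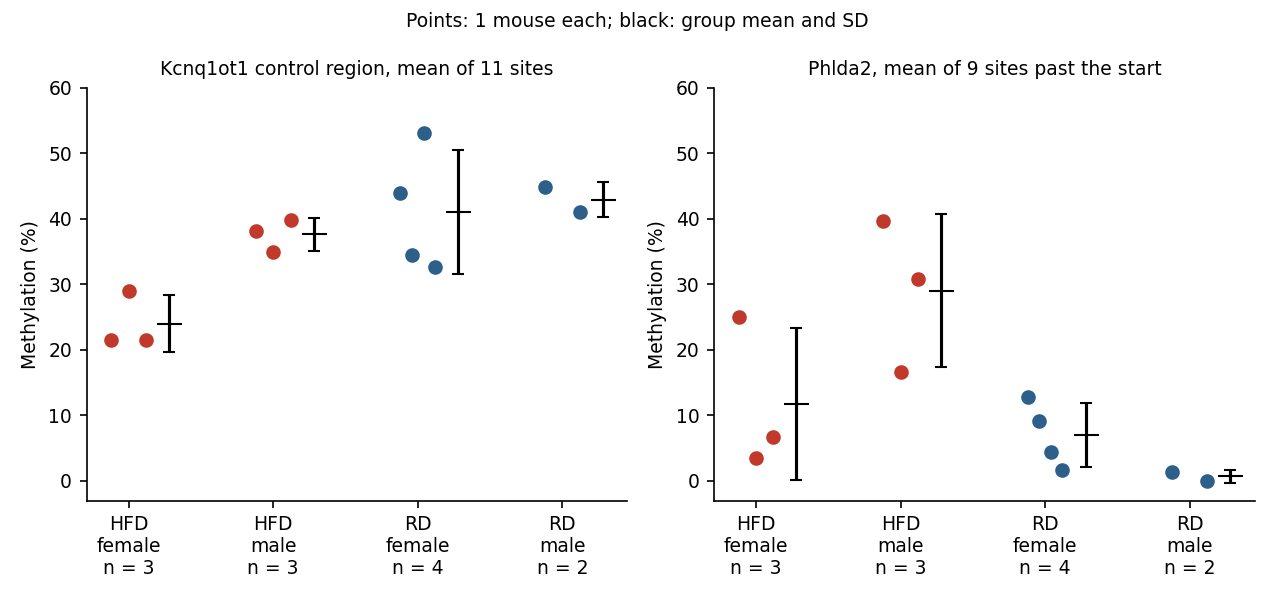
Mean methylation in percent of the 11 Kcnq1ot1 control region sites (left) and of 9 sites just past the Phlda2 start (right), 1 point per mouse, with group mean and SD, for 3 HFD females, 3 HFD males, 4 RD females and 2 RD males. The HFD females are the lowest mice on the left at 21.4 to 29.0%, and the HFD males hold the highest values on the right at 16.7 to 39.7%, together with HFD female 2 at 25.0%.

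Females and males were compared in the control region with sex labels moved within the diets. Females averaged 33.7% ± 11.6 (SD, n = 7) and males 39.7% ± 3.66 (SD, n = 5). The difference of -6.00 points did not pass (exact permutation test, two-sided, 300 arrangements, p = 0.227, and 0.524 adjusted over 6 regions). Over the 7 core sites alone it was -2.78 points (exact permutation p = 0.607). It passed without RD female 3, the mouse with the highest level, at -9.23 points (exact permutation p = 0.0350). Within HFD, the female minus male difference was -13.6 points, with females below males and no overlap, and the exact permutation p of 0.100 is the smallest that 3 against 3 mice allow. Within RD the difference was -1.90 points, but 2.83 points over the 7 core sites, with females the higher. The diet difference in females minus that in males was -11.7 points, a description made of the values that chose the domain.

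At single sites the members were read against the whole table, with rates on a log2 ratio scale and limma fitted over 157524 sites with a mean of 5 to 95%. The fit held 67 member sites. For sex, 0 of 67 member sites passed an adjusted p of 0.05, and the share called over all sites was 0%. An unadjusted p under 0.05 was reached by 9 of the 67, among them 4 control region sites, against 5.30% of all sites. The 4 were those from 143295469 to 143295508, where the female minus male difference was -10.8 to -13.02 points. Sites this close can lie on the same reads, so neither the 4 nor the 9 are separate measurements. Outside the control region, the 3 smallest p for sex were all in Cdkn1c. At 143459669, females had 16.8% ± 9.19 (n = 7) and males 4.60% ± 6.61 (n = 5). The limma p there was 0.00679, but 0.917 after adjustment. At 143459616 females lay 11.1 points above males, and at 143459640 10.4 points. These 3 Cdkn1c sites can share reads too. For the diet-by-sex interaction, 0 of 67 member sites passed, the share over all sites was again 0%, and 9 had an unadjusted p under 0.05, of which 8 were in Phlda2, against 5.11% of all sites. For diet, which chose the domain, 0 of 67 passed where 0.0102% of all sites did, and 21 had an unadjusted p under 0.05, against 6.53% of all sites. The counts for diet and for the interaction rest on diet differences, which chose the domain and the Phlda2 stretch described next, and nothing is read from them. The diets did not overlap at 0 of the 112 complete member sites, where 0.364% of all complete sites showed no overlap.

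Phlda2 held the largest diet differences outside the control region, and they ran the other way. The 5 sites with the largest absolute difference, at 143502337, 143502348, 143502361, 143502370 and 143502406, were higher in HFD by 15.9 to 17.6 points. They belong to 9 neighbouring sites, 143502337 to 143502411, which lie 113 to 187 bases past the Phlda2 start. Over these 9 sites, HFD females 2, 3 and 4 had 25.0, 3.50 and 6.72%. HFD males 2, 3 and 4 had 39.7, 16.7 and 30.8%. RD females 1, 2, 3 and 4 had 12.7, 9.19, 4.46 and 1.65%, while RD males 1 and 2 had 1.41 and 0%. So 4 of the 6 HFD mice exceeded every RD mouse, and HFD females 3 and 4 lay within the RD range. The means were 20.4% ± 14.05 in HFD and 4.91% ± 5.04 in RD (SD, n = 6 each), with a difference of 15.5 points. The stretch was singled out for this difference, so it has no test of diet.

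The difference was 4.73 points in females and 28.3 points in males. The female minus male gap in this difference, -23.6 points, comes from the values that singled out the stretch and is a description. Sites of the stretch were alike within some mice and less so in others. HFD male 4 had 30.8% at each of the 9, while HFD male 2 had 42.9% at 7 sites, 21.4% at 143502375 and 35.7% at 143502411. Sites this close can lie on the same reads, so the 9 are not 9 separate measurements.

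The neighbouring stretches showed no difference of this size. The 16 sites from 143502023 to 143502187, deeper in the gene, averaged 1.86% ± 1.18 in HFD and 2.09% ± 1.37 in RD. The 12 sites from 143502513 to 143502586, which span the start and include measured CG pairs at the end of the printed sequence, averaged 1.20% ± 1.60 and 2.05% ± 2.58. The 4 sites from 143502739 to 143502812, further upstream, averaged 4.52% ± 3.61 and 2.73% ± 2.34 (SD, n = 6 each). In these 3 stretches the diets overlapped and their means differed by less than 2 points.

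**Figure D4:**
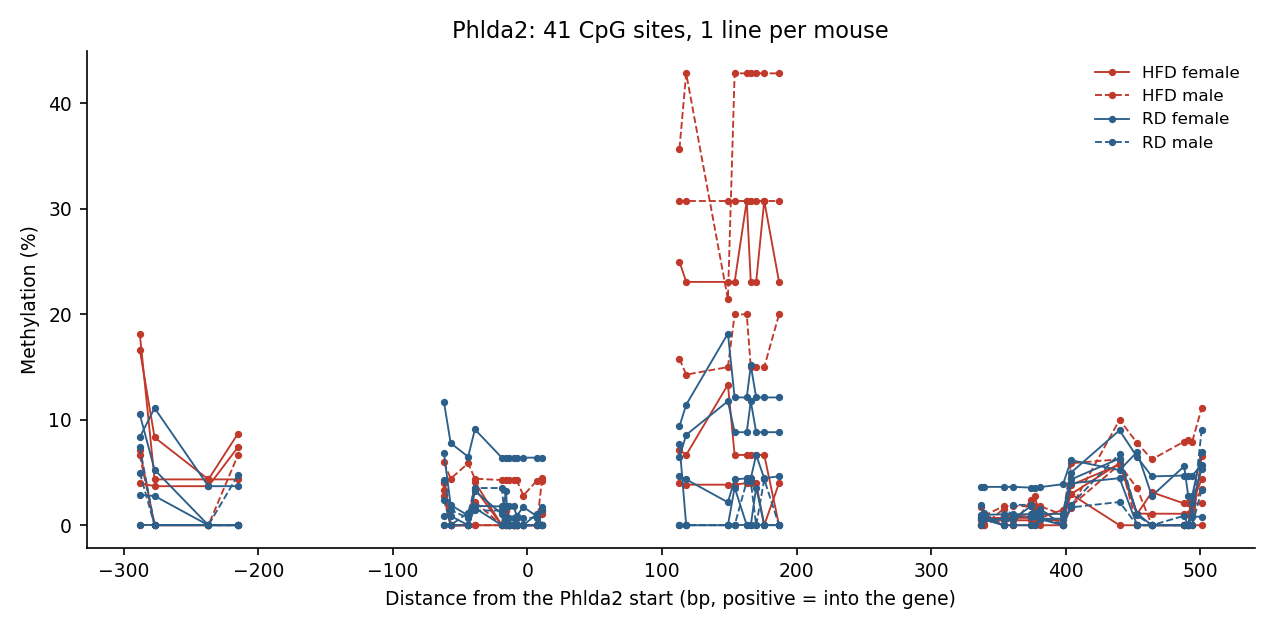
Methylation in percent at the 41 Phlda2 sites against distance from the Phlda2 start in bp, with 1 line per mouse joining sites under 60 bp apart, coloured by maternal diet and dashed for males. The lines part at 113 to 187 bp past the start, where HFD male 2 averages 39.7% and RD male 2 has 0%.

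The Kcnq1 start and the Cdkn1c body showed little difference between the diets. The Kcnq1 start had 4.50% ± 2.63 in HFD and 4.50% ± 4.24 in RD. HFD females 2, 3 and 4 had 1.57, 3.16 and 2.57% there, and HFD males 2, 3 and 4 had 4.94, 8.72 and 6.05%. RD female 1 had 12.8%, far above the other RD mice at 1.17 to 4.40%. The Cdkn1c body had 12.1% ± 8.69 in HFD and 9.66% ± 5.54 in RD (SD, n = 6 each). HFD values ran from 1.74 to 23.4% with a median of 10.7%, and RD values from 1.96 to 17.8% with a median of 10.3%. Over the 112 complete member sites, 59 were lower and 53 higher in HFD, and the median difference was -0.0643 points. Of all 306534 autosomal complete sites, 47.7% were lower and 49.6% higher, with a median difference of 0.

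The control region varied more between mice of a diet than most regions of its level. Its SD within the diets was 7.80 points, where the median of 1481 gene-end windows with a mean of 20 to 80% was 4.33 points and 91.1% had a smaller SD. The 4 sites at 143295469 to 143295508 and the 7 at 143295571 to 143295618 gave r = 0.775 over the 6 HFD mice and 0.492 over the 6 RD mice. These are given as a description, and no value over all 12 mice is given, since both sets of sites carry the diet difference that chose the domain.

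Levels of the control region were set beside those of 12 other stretches of at least 3 complete sites, after seeing the data and within each diet, as a description. The stretch singled out by its values is that of the 4 sites upstream of the Phlda2 start, 143502739 to 143502812. There r was -0.866 over the 6 HFD mice and -0.657 over the 6 RD mice. The levels behind it are low, from 0% in HFD male 3 and RD female 3 to 9.51% in HFD female 4. HFD females 2, 3 and 4 had 7.81, 4.70 and 9.51%, and HFD males 2, 3 and 4 had 1.79, 0 and 3.33%. The HFD value of r therefore cannot be told apart from the difference between the sexes in HFD. With the 9 sites past the Phlda2 start, r was 0.583 in HFD and 0.0208 in RD. With the Cdkn1c body it was -0.287 in HFD and 0.155 in RD.

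Of 1480 gene-end windows outside the domain with a mean of 20 to 80%, those whose levels followed the control region most closely over the 12 mice, after the mean of each diet was subtracted, were ranked by Pearson's r as a description. The highest was Gm30716 on chromosome 14, 78650066 to 78650119, with r = 0.882 and rho = 0.853. It had 62.1% ± 5.18 in HFD and 68.5% ± 4.87 in RD (SD, n = 6 each). Gm14249 on chromosome 2 followed with r = 0.832, then Gm39592 on chromosome 1 with 0.788, Gm34572 with 0.784, and, on chromosome 11, a window shared by Prr29 and an uncharacterised locus with 0.759. The windows of Gm30716, Gm14249 and Gm39592 hold 3 sites each.

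Neighbouring genes on the same chromosome carried little methylation at their ends. Of 13 listed neighbours, 6 had a window with at least 3 complete sites, namely Ascl2, Cd81, Nap1l4, Cars, Tnfrsf23 and Osbpl5. Their means ran from 0.507 to 4.95%, and 4 were lower and 2 higher in HFD (median -0.120 points). The largest differences were 1.87 points in Cd81 and -1.24 points in Ascl2, both within the spread between mice. Among 17 listed genes whose control regions are methylated on the maternal copy, 11 had a window. These windows lie at gene ends and need not cover the control regions. Their means ran from 2.69 to 82.2%. Of the 12 windows of these genes, 8 were lower and 4 higher in HFD (median -2.36 points). The largest differences were -21.9 points in Peg13, -15.3 in Plagl1, -14.8 in Zrsr1 and -12.6 in Peg10. Among the 4 higher windows, the largest difference was 7.15 points. Of 3 listed genes methylated on the paternal copy, H19 (mean 76.1%) differed by 1.20 points and Rasgrf1 (mean 7.85%) by -0.772 points. Meg3 had no window.

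The labelled tissue could not be checked by marker expression, since only methylation was measured. Of 9 listed cardiomyocyte genes, Myh6, Tnnt2, Ryr2 and Actn2 had a window. The mean level of these 4 windows was 28.7 to 33.7% in HFD mice and 29.5 to 33.4% in RD mice. Of the 4, 2 were lower and 2 higher in HFD (median -0.00911 points). The largest difference was in Myh6, which had 67.3% ± 6.54 in HFD and 71.1% ± 4.37 in RD (SD, n = 6 each). None of the 6 endothelial, 5 fibroblast and 5 blood genes listed had a window with 3 complete sites. The part of cell composition in the levels above was not tested.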

How the data were processed

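The authors deposited 1 table of percent methylation, each line a CpG position and each mouse a column, per the file headers. The submitters' processing notes name FastQC, Trim Galore, Bismark 0.19, limma and the build mm10. The coverage minimum and the treatment of strands are not given in the sources used here. All columns matched 1 sample each (0 unmatched). Positions were checked against RefSeq promoter sequences of GRCm38.p6, where 45410 of 45418 rows lay on a CG. Starts and strands came from that table for Kcnq1ot1, Phlda2 and Slc22a18. The Phlda2 start used, 143502524, lies inside the gene's span, which reaches 143503145, so sites upstream of it can still lie in the gene. For Kcnq1 and Cdkn1c the gene's end was used, with the strand from general knowledge.

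Region levels are means over sites with 12 values, on the percent scale. Regions were compared with exact permutation tests (two-sided, sign flips within mice, or sex labels moved within diets). Sites were fitted with limma 3.58.1 (R 4.3.3) on log2((rate + 0.05)/(1 − rate + 0.05)), rates as fractions, with diet and sex as terms, over autosomal sites with 12 values and a mean of 5 to 95%. For the interaction each diet and sex group had its own mean. Benjamini-Hochberg adjustment covered all sites tested, with a threshold of 0.05. The fit was tested on simulated data. Gene-end windows span 1000 bp on each side of a gene end, with at least 3 such sites. Members and gene lists were chosen with earlier results of these data known. The text names the members, the control region sites of highest and lowest mean, the 5 other member sites with the largest diet difference, the 3 with the smallest p for sex, the 5 most alike windows and up to 4 windows of each list. Stretches join rows under 60 bp apart. Figures were drawn with matplotlib 3.10.9.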

Additional observations from a re-analysis of the deposited data

Results flagged for a closer look

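In 15 groups of values examined for a mouse far from its group (Dixon's 95% criterion, which chance meets in about 0.75 of 15), RD female 1 stood out at the Kcnq1 start. It had 12.8% there, where the other RD females had 1.17 to 2.95% and all other RD mice had 1.17 to 4.40%. It was picked out both among the 4 RD females and among the 6 RD mice, which is the same value counted in overlapping groups. The same mouse had the highest RD level at the Phlda2 start, 6.59%, and at the 9 sites past it, 12.7%. Its control region level of 44.0% was close to the RD median of 42.5%. The cause was not tested.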

How the results depend on the processing

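The control region stayed lower in HFD under all 20 alternatives, with -8.58 to -12.7 points when 1 mouse was left out and -11.2 points over the 7 core sites alone, which are also the sites within 1000 bp of the start. No member rows lay 1 bp apart. The difference between females and males over both diets kept its direction, with -3.95 to -9.23 points when 1 mouse was left out. It was -2.78 points over the core sites alone and passed the threshold only without RD female 3 (exact permutation p = 0.0350). The excess over the Kcnq1 start was 29.9 to 32.9 points, that over the Phlda2 start 30.1 to 33.4 points and that over the Cdkn1c body 23.8 to 27.6 points when 1 mouse was left out, each past the threshold. The diet-by-sex difference was -7.68 to -14.5 points in those settings, a description. The Phlda2 stretch was higher in HFD by 11.6 to 18.9 points when 1 mouse was left out, by 4.73 points in females and by 28.3 points in males. Member sites called for diet, sex or their interaction remained 0 under every alternative, those with 1 RD male included, where that mouse is assumed to vary like the other groups. Over all sites, 16 were called for diet, and 0 to 78 under the alternatives. For sex 0 were called, except 1 without HFD male 2, and for the interaction 0, except 35 with no limit on the mean level.

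Replicate numbers are shared by the diets in the labels, but nothing in the labels ties them to shared mothers or litters. Same-numbered mice did not deviate together (r = -0.0352 to 0.0133 over sites). Deviations of the 2 RD males from their mean mirror each other, so the male value of -0.0352 carries no separate information. Whether same-numbered mice share a mother or litter was not tested. With the replicate block, 0 member sites were called by limma for diet, sex or interaction (19, 10 and 10 had an unadjusted p under 0.05) and the control region difference was -12.5 points. A coverage minimum was not run, as the percentages come without read numbers. Unknown depth limits all single-site values.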

Other observations

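Between the end of Kcnq1 and Cdkn1c, 36 rows lay over 5000 bp from each member and belonged to none. The 7 sites at 143438117 to 143438175 averaged 0.892% ± 0.630 in HFD and 1.05% ± 0.732 in RD (SD, n = 6 each). The 17 sites at 143445266 to 143445419 averaged 21.4% ± 3.53 in HFD and 24.1% ± 2.75 in RD, with site means from 6.06 to 43.7%. The neighbouring 7 sites at 143445537 to 143445599 averaged 4.78% ± 1.30 and 5.51% ± 1.14. No mouse lay below 17.3% or above 27.8% over the 17 sites, a narrower range than in the Kcnq1ot1 control region, where the mice ran from 21.4 to 53.1%.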
